A study of Homo sapiens with 6 samples.

Results

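TAC3, UBXN10, AHNAK2 and WIPF3 are 4 protein-coding genes with no common pathway, chosen by their count ratio between K562 cells given MXD3 and cells given an empty plasmid. They were found by NCBI Gene ID and make up 4 of the 25702 identifiers in every count table, and all 4 passed the filter on low counts. K562 is an established line of cultured cells from chronic myeloid leukaemia. The cells were transfected by nucleofection with a plasmid of the pCMV-HA type, in which a cytomegalovirus promoter drives the insert. The plasmid was empty (EV), or carried wild-type MXD3 or the fusion gene STIM1::MXD3, and the labels give no other treatment. Each of the 3 groups had 2 libraries of poly A RNA, numbered replicate 1 and 2 and described in the study as independent transfections. In this bulk RNA a change in every cell and a larger change in part of the cells cannot be told apart.

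MXD3 belongs to the MXD family of basic helix-loop-helix proteins. These pair with MAX, bind the E-box sequence CACGTG and recruit SIN3 and histone deacetylases through an amino-terminal domain, which lowers transcription where MYC and MAX would raise it. STIM1::MXD3 keeps the DNA-binding part of MXD3 and has the start of STIM1, with its signal peptide for the endoplasmic reticulum, in place of the repression domain. TAC3 encodes the precursor of neurokinin B, a tachykinin peptide that acts on the receptor TACR3 and is best known from the hypothalamic control of reproduction. UBXN10 encodes an adaptor with a UBX domain that binds the ATPase p97 and has been linked to intraflagellar transport in cilia. AHNAK2 encodes a very large scaffold protein related to AHNAK. WIPF3, also called CR16, encodes a member of the WIP family, which binds N-WASP and actin.

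The libraries held 53048343 to 63835779 counts. The MXD3 gene stood at 9.33 and 11.7 CPM (counts scaled to library size by TMM) in EV, at 2524 and 2162 CPM with MXD3 and at 1975 and 1849 CPM with STIM1::MXD3, so MXD3 sequence was raised in the libraries labelled with either construct. STIM1 stood at 205 and 176 CPM in EV, at 187 and 159 CPM with MXD3 and at 471 and 453 CPM with STIM1::MXD3. The 10 markers of K562 and its erythroid character, such as GATA1, KLF1 and the fetal and embryonic globins, were detected in every library, with a summed level of 7005 to 9770 CPM. The 4 lymphoid markers summed to 1.53 to 2.54 CPM, and MS4A1 was at 0 in every library. The 6 epithelial and stromal markers summed to 86.4 to 109.6 CPM, nearly all of it EPCAM, with KRT5 and KRT14 at 0.

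As MXD proteins bind E-boxes, the 250 bases before the RefSeq start of each gene are shown first. They were taken from RefSeq (GRCh38.p14) and placed by exact match on GRCh37, the build of the files. Capitals mark the E-box CACGTG and the GC box GGGCGG, each read on both strands. The further motifs, CACGCG and TATAAA, were searched and were found in none of the 4 windows, and no marked motif overlaps one of another kind.
UBXN10: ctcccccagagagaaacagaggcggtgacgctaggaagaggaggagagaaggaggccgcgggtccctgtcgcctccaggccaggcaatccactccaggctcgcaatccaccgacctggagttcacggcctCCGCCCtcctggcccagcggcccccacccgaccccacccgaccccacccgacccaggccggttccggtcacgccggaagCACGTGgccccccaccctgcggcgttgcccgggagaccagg
TAC3: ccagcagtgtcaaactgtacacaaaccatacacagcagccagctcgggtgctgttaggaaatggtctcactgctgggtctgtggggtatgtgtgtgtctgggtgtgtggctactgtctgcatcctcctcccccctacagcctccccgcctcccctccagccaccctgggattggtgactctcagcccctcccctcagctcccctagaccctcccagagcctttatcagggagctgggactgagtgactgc
AHNAK2: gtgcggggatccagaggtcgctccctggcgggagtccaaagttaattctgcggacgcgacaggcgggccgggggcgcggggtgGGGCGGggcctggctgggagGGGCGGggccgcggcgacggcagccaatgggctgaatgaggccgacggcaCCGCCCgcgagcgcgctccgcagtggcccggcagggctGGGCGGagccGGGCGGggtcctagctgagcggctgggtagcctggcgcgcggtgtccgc
WIPF3: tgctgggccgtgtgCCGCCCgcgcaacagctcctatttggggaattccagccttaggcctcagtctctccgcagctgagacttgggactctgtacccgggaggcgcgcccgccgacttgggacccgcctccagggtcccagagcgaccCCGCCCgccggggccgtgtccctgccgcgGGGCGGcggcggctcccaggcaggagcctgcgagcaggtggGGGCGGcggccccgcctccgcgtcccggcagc
The UBXN10 window lies at chr1:20512339-20512588 on the plus strand, just before the annotated gene and within the locus of PLA2G2C on the other strand. Its 1 E-box begins 41 bases before the start. The TAC3 window lies at chr12:57410314-57410563 on the minus strand, inside the longer TAC3 locus of the annotation with 9 bases in an untranslated region, and holds neither motif. The AHNAK2 window lies at chr14:105444712-105444961 on the minus strand, before the gene, and holds 5 GC boxes and no E-box. A second RefSeq start of AHNAK2, inside the gene, has no E-box in its 250 bases either. The WIPF3 window lies at chr7:29845874-29846123 on the plus strand, reaches 22 bases into an annotated untranslated region, and holds 4 GC boxes and no E-box. Of 35116 RefSeq windows of the same length, 6.34% held CACGTG and 42.6% held GGGCGG. A match describes the letters only, and binding was not measured.

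TAC3, with NCBI Gene ID 6866 and located at chr12:57403784-57422667 on the minus strand of GRCh37, was the member whose replicates lay closest together. In replicate 1 and then 2, its level was 4.42 and 4.64 CPM for EV, 9.18 and 10.1 CPM for MXD3, and 6.91 and 6.65 CPM for STIM1::MXD3. The 3 groups did not overlap, with EV lowest, the fusion in the middle and MXD3 highest. Group means were 4.53 ± 0.158 CPM for EV, 9.62 ± 0.619 CPM for MXD3 and 6.78 ± 0.189 CPM for the fusion (SD, n = 2 each). The MXD3 library was 2.08-fold above EV in replicate 1 and 2.17-fold above it in replicate 2. The counts behind these levels ran from 225 to 590, and the counting interval (95%, exact Poisson) was 4.12 to 5.22 CPM for EV replicate 2 and 8.46 to 9.96 CPM for MXD3 replicate 1.

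UBXN10, with NCBI Gene ID 127733 and located at chr1:20512589-20522543 on the plus strand of GRCh37, was likewise at a higher level with MXD3, but its level also differed between the replicates. The EV libraries stood at 8.78 and 15.0 CPM, the MXD3 libraries at 19.4 and 28.0 CPM, and the STIM1::MXD3 libraries at 12.3 and 28.0 CPM. Both MXD3 libraries lay above both EV libraries, while the fusion libraries spanned the range from between the EV libraries to the level of the higher MXD3 library. The ratio of MXD3 to EV was 2.21-fold in replicate 1 and 1.86-fold in replicate 2. Means were 11.9 ± 4.40 CPM for EV, 23.7 ± 6.06 CPM for MXD3 and 20.1 ± 11.1 CPM for the fusion (SD, n = 2 each).

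AHNAK2, with NCBI Gene ID 113146 and located at chr14:105403581-105444711 on the minus strand of GRCh37, had the lowest mean of the 4 genes over all 6 libraries (3.87 CPM) and stood lower with both constructs than with EV. The EV libraries were at 7.15 and 4.99 CPM, those with MXD3 at 3.30 and 1.62 CPM, and those with the fusion at 4.32 and 1.83 CPM. All 4 libraries with a construct lay below both EV libraries. The counting intervals of fusion replicate 1 (3.79 to 4.91 CPM) and EV replicate 2 (4.44 to 5.58 CPM) overlapped, however. In same-numbered libraries MXD3 stood 2.17-fold and 3.08-fold below EV. The MXD3 library of replicate 2 rested on 91 counts, which gave a counting interval of 1.30 to 1.99 CPM, and the fusion library of replicate 2, from 115 counts, fell within it. Means were 6.07 ± 1.53 CPM for EV, 2.46 ± 1.19 CPM for MXD3 and 3.08 ± 1.76 CPM for the fusion (SD, n = 2 each).

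WIPF3, with NCBI Gene ID 644150 and located at chr7:29846102-29956677 on the plus strand of GRCh37, was the member whose EV replicates differed most. Its level with EV was 23.1 and 9.85 CPM, with MXD3 9.03 and 5.66 CPM, and with the fusion 19.0 and 6.55 CPM. The MXD3 libraries were the lowest of their own replicate, yet the higher of them came close to the lower EV library. The counting intervals of these 2 libraries, 8.31 to 9.79 CPM from 580 counts and 9.07 to 10.7 CPM from 596 counts, overlapped. Within replicate 1 MXD3 stood 2.56-fold below EV, and within replicate 2 1.74-fold. Means were 16.5 ± 9.37 CPM for EV, 7.34 ± 2.38 CPM for MXD3 and 12.8 ± 8.78 CPM for the fusion (SD, n = 2 each). Counting intervals here and above cover counting error only. Of the counts from 1 to 39, 59.8% to 67.3% per library were even, and if both reads of a pair were counted these intervals are too narrow.

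**Figure D1:**
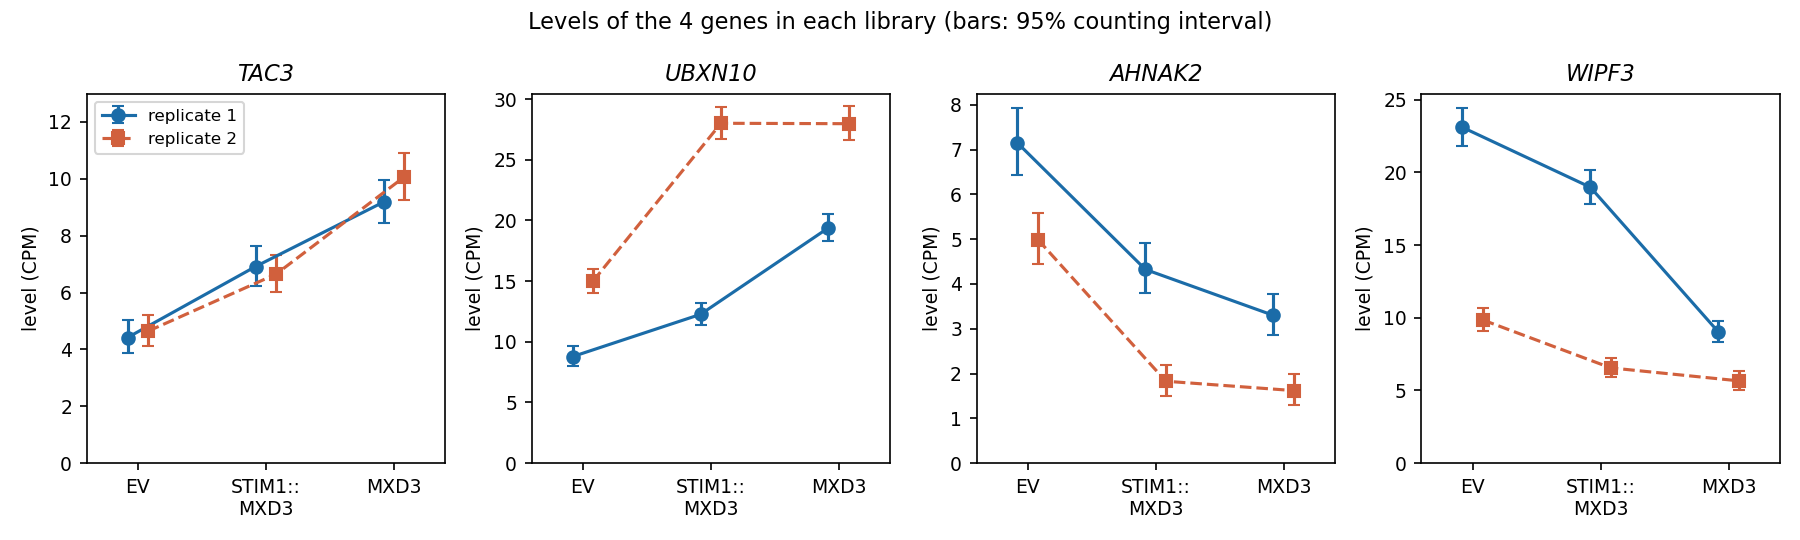
Level of TAC3, UBXN10, AHNAK2 and WIPF3 in CPM (linear axis from 0) in each of the 6 libraries, with circles for replicate 1, squares for replicate 2, bars for the 95% counting interval and lines joining same-numbered libraries. TAC3 goes from 4.42 and 4.64 CPM in EV to 9.18 and 10.1 CPM with MXD3 with both replicates together, while the replicates of the other 3 genes lie apart, as for WIPF3 in EV (23.1 and 9.85 CPM).

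These values from EV and MXD3 are those that chose the genes, so they are given without a test. The rule named a change over 2-fold in both replicate pairs, and that holds for TAC3 and AHNAK2 but not for UBXN10 or WIPF3, whose smaller pair changes were 1.86-fold and 1.74-fold. Of the 15431 genes tested, 0.674% were higher and 0.661% lower by over 2-fold in both pairs, most of them at low counts. Among the 10250 with a mean level of at least 5 CPM only 3 were, namely MXD3 itself (smaller pair change 184.8-fold), the metallothionein gene MT1X (2.14-fold lower) and TAC3 (2.08-fold higher). Just outside the threshold were VPS9D1-AS1 (1.94-fold higher), UBXN10 (1.86-fold higher) and L1CAM (1.84-fold lower). WIPF3 ranked 10 in this order, and AHNAK2, with a mean of 3.87 CPM, was below that level. Both MXD3 libraries were above both EV libraries in 16.2% of all genes tested and below both in 14.8%. The members were chosen on these same libraries, so their separation is not independent of the choice.

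**Figure D2:**
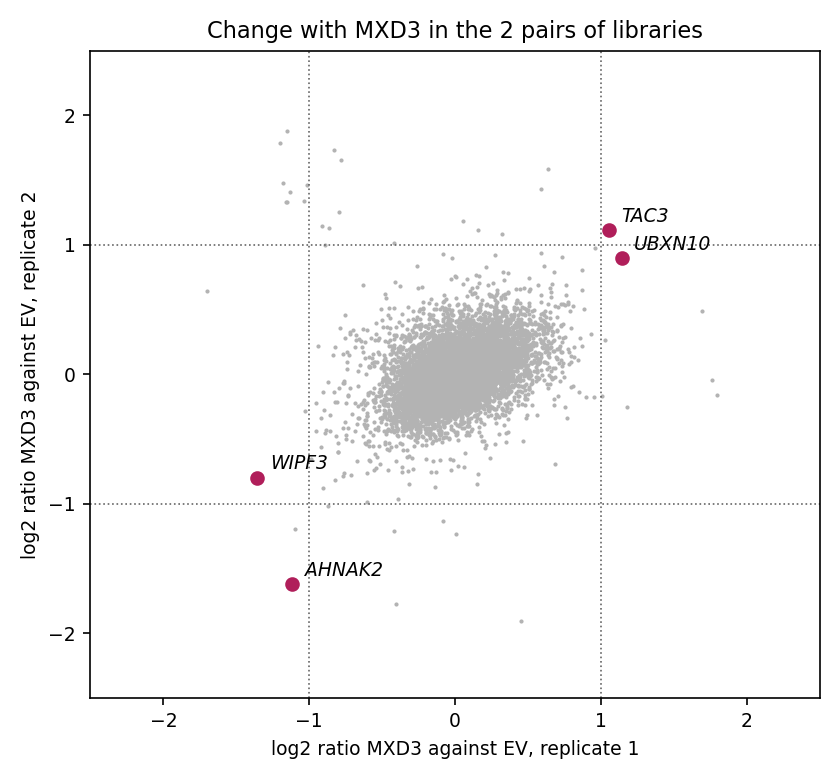
Log2 ratio of MXD3 to EV in replicate 1 (horizontal axis) against that in replicate 2 (vertical axis) for 10246 genes with a mean of at least 5 CPM (grey points, MXD3 itself left out), with the 4 named genes in red and dotted lines at a 2-fold change. Beyond the axes lie 3 grey points. TAC3 (2.08-fold and 2.17-fold) and AHNAK2 (2.17-fold and 3.08-fold) lie beyond both lines, and UBXN10 and WIPF3 beyond the line for replicate 1 only.

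Fitted across all 6 libraries by edgeR, the log2 fold change from EV to MXD3 was 1.09 ± 0.19 for TAC3, 0.99 ± 0.43 for UBXN10, -1.30 ± 0.50 for AHNAK2 and -1.16 ± 0.58 for WIPF3 (SE). The test called 0.00648% of all genes in this comparison, which was the transfected MXD3 alone. DESeq2 and the fits with a replicate term raised this share. As this comparison chose the 4 genes, no p or call of theirs in it is given for any fit. The SE of TAC3 was the smallest of the 4. Leaving out 1 library at a time, TAC3 ran from 1.01 to 1.16. UBXN10 ran from 0.66 without EV replicate 1 to 1.43 without EV replicate 2, while AHNAK2 was lowest, at -1.89, without MXD3 replicate 1 and highest, at -0.89, without MXD3 replicate 2. WIPF3 had the widest range, from -1.65 without EV replicate 2 to -0.42 without EV replicate 1.

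The libraries with STIM1::MXD3 took no part in choosing the genes, although the EV and MXD3 libraries they are set against did, so the comparisons share samples with the choosing one. In replicate 1 the fusion lay between EV and MXD3 for all 4 genes. In replicate 2 it did so for TAC3, AHNAK2 and WIPF3, while UBXN10 stood at 28.0 CPM with both constructs. Lying between EV and MXD3 in both replicates was seen in 12.7% of all genes tested, and in 3 of these 4. The members were chosen for a wide gap between EV and MXD3, in which a further value falls more easily. The 2 shares are therefore not alike, and their difference is not independent of the choice. On the log2 scale, with EV at 0% and MXD3 at 100%, the fusion stood at 61.2% and 46.4% for TAC3, at 42.1% and 100.2% for UBXN10, at 65.1% and 89.3% for AHNAK2 and at 20.9% and 73.6% for WIPF3 (replicate 1 and 2). The position differed between the replicates for each gene, least for TAC3.

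With STIM1::MXD3 against EV, TAC3 had a difference of 0.58 ± 0.19 on the log2 scale (SE, adjusted p = 1.00 over all genes by edgeR). For UBXN10 the value was 0.76 ± 0.43, for AHNAK2 -0.98 ± 0.50 and for WIPF3 -0.37 ± 0.57, and the adjusted p was again 1.00 (edgeR). So 0 of the 4 genes passed, against 0.00648% of all genes, and 1 of 4 (TAC3) had an unadjusted p under 0.05, against 0.953% of all genes. The only gene called was the transfected MXD3 (adjusted p = 5.23e-05, edgeR). STIM1, whose start is part of the fusion, differed by 1.28 ± 0.14 (SE) and was not called (adjusted p = 0.359, edgeR). A missing call in this fit is therefore no sign of an unchanged level. DESeq2 also called 0 of 4, against 0.0194% of all genes, with 2 (TAC3 and AHNAK2) under 0.05 unadjusted, against 1.17%. With a replicate term DESeq2 called UBXN10, as given at the end. Both fusion libraries were above both EV libraries for TAC3, as in 12% of all genes, and below both for AHNAK2, as in 10%. For UBXN10 and WIPF3 the fusion and EV libraries overlapped. In same-numbered libraries the fusion stood 1.56-fold and 1.43-fold above EV for TAC3, 1.40-fold and 1.87-fold above it for UBXN10, 1.65-fold and 2.73-fold below it for AHNAK2, and 1.22-fold and 1.50-fold below it for WIPF3. The EV libraries in these ratios are those that chose the genes, so their signs are not independent of the choice. The sign for WIPF3 in the fit changed when a library was left out, to 0.37 without EV replicate 1 and 0.20 without STIM1::MXD3 replicate 2. In those fits the groups compared no longer held the same replicate numbers. In both same-numbered pairs the fusion stood below EV.

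Between the constructs, the difference of STIM1::MXD3 from MXD3 for TAC3 was -0.50 ± 0.19 on the log2 scale (SE, adjusted p = 1.00, edgeR), and neither fusion library reached the MXD3 libraries, as in 10.2% of all genes. The MXD3 libraries are among those that chose the genes, so the members' differences in this comparison are not independent of the choice. UBXN10 differed by -0.23 ± 0.42, AHNAK2 by 0.32 ± 0.50 and WIPF3 by 0.79 ± 0.58, with an adjusted p of 1.00 for all 3 (edgeR), and their libraries overlapped. The test called 0 genes in this comparison (0% of those tested), and 1 of the 4 genes, TAC3, had an unadjusted p under 0.05, as did 1.01% of all genes. DESeq2 called 0 of the 4 as well, against 0.00648% of all genes, again with 1 (TAC3) under 0.05 unadjusted, against 1.11%. These SEs, from a fit without a replicate term, are too wide to show that UBXN10, AHNAK2 or WIPF3 stood alike with the constructs. Values with that term are given at the end. In same-numbered libraries the fusion stood 2.10-fold and 1.16-fold above MXD3 for WIPF3 and 1.31-fold and 1.13-fold above it for AHNAK2. It stood 1.33-fold and 1.51-fold below MXD3 for TAC3. For UBXN10 it stood 1.58-fold below MXD3 in replicate 1 and level with it in replicate 2. The signs of the fitted differences of UBXN10, AHNAK2 and WIPF3 changed when 1 library was left out, which left the constructs with unlike replicate numbers. UBXN10 was at 0.07 without MXD3 replicate 2 and 0.24 without STIM1::MXD3 replicate 1, AHNAK2 at -0.10 and -0.43 without the same libraries, and WIPF3 at -0.17 without STIM1::MXD3 replicate 1. MXD3 RNA itself was at 1849 to 1975 CPM with the fusion and at 2162 to 2524 CPM with MXD3. The fusion lacks the start of MXD3, so these levels do not count the transcripts of both constructs alike. The part of this difference in the values of TAC3 was not tested.

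**Figure D3:**
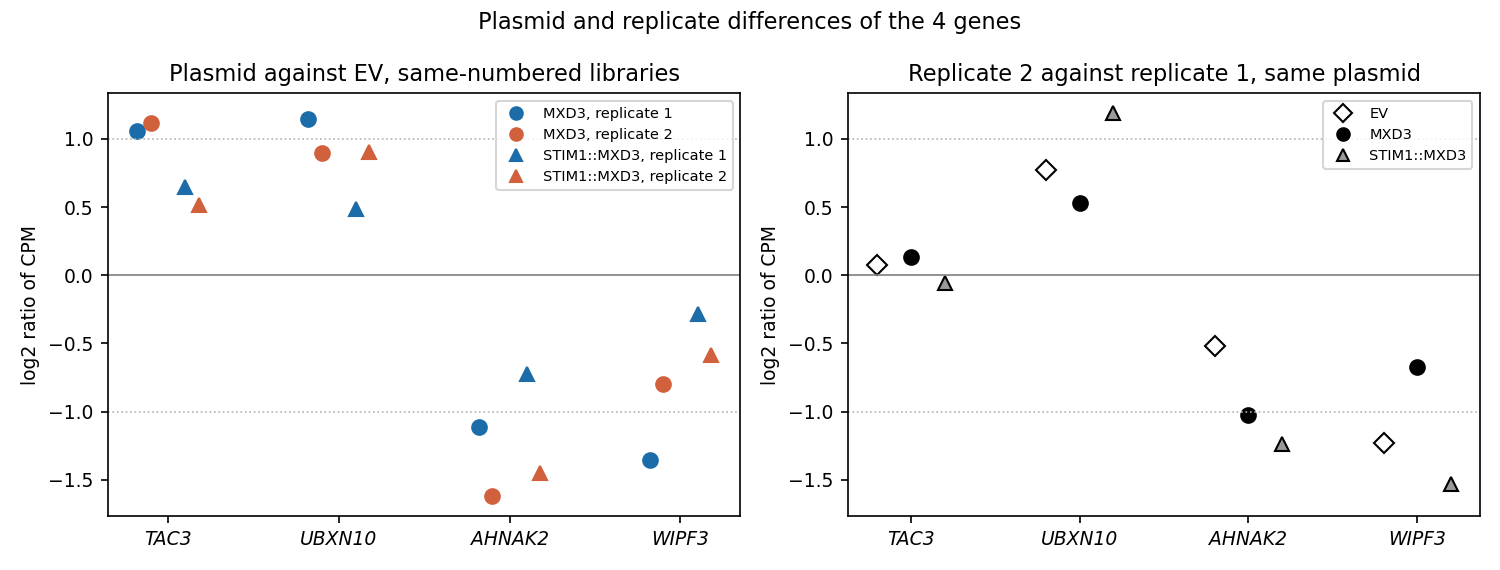
Log2 ratios of CPM for the 4 genes, on the left for MXD3 (circles) and STIM1::MXD3 (triangles) against EV in same-numbered libraries, and on the right for replicate 2 against replicate 1 within each plasmid group. Dotted lines mark a 2-fold difference. On the left TAC3 with MXD3 lies at 1.06 and 1.12 and with the fusion at 0.65 and 0.52, and on the right TAC3 stays near 0 while WIPF3 runs from -0.67 with MXD3 to -1.53 with STIM1::MXD3.

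For 3 of the 4 genes the same plasmid gave levels that differed between the replicates by 1.43-fold to 2.90-fold. From replicate 1 to replicate 2, UBXN10 was higher by 1.71-fold in EV, 1.44-fold with MXD3 and 2.28-fold with STIM1::MXD3. AHNAK2 was lower by 1.43-fold, 2.04-fold and 2.36-fold in the same order, and WIPF3 by 2.35-fold, 1.59-fold and 2.90-fold. TAC3 differed by 1.05-fold and 1.10-fold upward in EV and MXD3 and by 1.04-fold downward with the fusion. Of all genes tested, 28.6% were higher and 30.2% lower in replicate 2 in every group, beside 1 and 2 of the 4 members, so a replicate difference of 1 sign was common. The largest plasmid ratio of WIPF3, in replicate 1, was taken against the EV library with the highest level of all 6. For UBXN10, AHNAK2 and WIPF3 the sign of the replicate difference was that of the change with MXD3. Across the 6 libraries log2 CPM of UBXN10 correlated with that of AHNAK2 (r = -0.96) and WIPF3 (r = -0.97), and AHNAK2 with WIPF3 (r = 0.89). TAC3 had r = 0.70 with UBXN10, -0.76 with AHNAK2 and -0.61 with WIPF3. These r describe genes chosen for their change, measured in the same libraries.

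Per kilobase of annotated exon, TAC3 had the highest mean in every group. It has the shortest exonic length of the 4 (1571 bases), by which its counts were divided, and in CPM alone it had the lowest mean in EV. In EV it stood at 2.88 ± 0.101 CPM per kb, followed by WIPF3 at 2.72 ± 1.55, UBXN10 at 2.14 ± 0.791 and AHNAK2 at 0.323 ± 0.0813 (SD, n = 2). The libraries of TAC3 overlapped those of WIPF3, and those of WIPF3 overlapped those of UBXN10, whereas both AHNAK2 values were below all others. With MXD3 the order was TAC3 (6.12 ± 0.394 CPM per kb), UBXN10 (4.26 ± 1.09), WIPF3 (1.21 ± 0.393) and AHNAK2 (0.131 ± 0.0632), and no neighbours in it overlapped. With STIM1::MXD3 the same order was found, from 4.32 ± 0.120 CPM per kb for TAC3 over 3.62 ± 2.00 for UBXN10 and 2.11 ± 1.45 for WIPF3 to 0.164 ± 0.0939 for AHNAK2, but TAC3 overlapped UBXN10 and UBXN10 overlapped WIPF3. AHNAK2 has 18788 exonic bases, so its few counts were spread over the longest transcript unit of the 4.

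The loci were then checked for other genes whose reads could have been counted with the members, since the use of strand in counting was not given. AHNAK2 shares 518 exonic bases with PLD4 on the opposite strand, and PLD4 had between 0 and 11 counts per library. TAC3 shares 112 exonic bases with MYO1A on the same strand, which had between 12 and 36 counts against 225 to 590 for TAC3. PLA2G2C overlaps the UBXN10 locus from the opposite strand without a shared exonic base and had 11 to 43 counts. No gene with a count row overlapped WIPF3. None of these overlapping genes reached 1 CPM in any library.

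The nearest genes on either side, which were not chosen for a change, were read in the same comparison of MXD3 with EV. ZBTB39, a zinc finger gene 3454 bases from TAC3, was at 40.9 and 47.8 CPM in EV and 41.2 and 44.7 CPM with MXD3 (log2 fold change -0.05 ± 0.14, SE). NEMP1, on the other side of TAC3, had a log2 fold change of 0.29 ± 0.20. For SCRN1, 3043 bases from WIPF3, it was 0.36 ± 0.27, and for DPY19L2P3 -0.10 ± 0.50. For CEP170B and CLBA1, beside AHNAK2, it was -0.10 ± 0.13 and 0.24 ± 0.65. PLA2G2F and VWA5B1, the neighbours of UBXN10, were at 0 counts in all 6 libraries, where 3 counts would be 0.0467 to 0.0589 CPM. The 6 tested neighbours had log2 fold changes of -0.10 to 0.36.

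Genes that work with the members were examined in 5 lists, 73 genes in all, of which 66 were tested and 0 were called in any of the 3 comparisons by edgeR or by DESeq2. With MXD3 against EV, 1 of the 66 had an unadjusted p under 0.05 in edgeR, against 1.86% of all genes, and 1 also in DESeq2, against 2.09%. For STIM1::MXD3 against EV the number was 1 in either tool, against 0.953% (edgeR) and 1.17% (DESeq2) of all genes. In edgeR this gene was WIPF2, at 68.8 and 70.6 CPM in EV and 58.5 and 54.2 CPM with the fusion (-0.31 ± 0.12, SE, unadjusted p = 0.0376). Between the constructs the number was 0 in either tool, against 1.01% and 1.11%. The tachykinin and kisspeptin list held 11 genes, of which 5 were tested, with a median log2 fold change with MXD3 of 0.26 beside 0.0011 over all genes tested. TACR3, the receptor of neurokinin B, was at 0 counts in every library, as was PDYN, which encodes the dynorphin precursor. The receptor gene TACR1 and the kisspeptin gene KISS1 had too few counts to be tested. TAC1, the other main tachykinin gene, was at 0.118 and 0.0330 CPM in EV and 0.109 and 0.214 CPM with MXD3 (1.10 ± 0.92). The log2 fold change was 0.33 ± 0.20 for KISS1R and 0.17 ± 0.78 for TACR2. MME, which encodes neprilysin, a peptidase that cleaves tachykinins, was the gene with an unadjusted p under 0.05 for MXD3 against EV in edgeR. It was at 12.4 and 11.0 CPM in EV, 8.16 and 6.48 CPM with MXD3, and 9.69 and 6.62 CPM with STIM1::MXD3 (log2 fold change with MXD3 -0.67 ± 0.25, adjusted p = 1.00, edgeR).

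All 15 genes of UBX proteins and p97 cofactors were tested, with a median log2 fold change with MXD3 of 0.04 and a range of -0.31 to 0.21. UBXN2B (0.21 ± 0.16) and VCP, which encodes p97 (0.10 ± 0.12), were at the upper end, and UBXN6 (-0.31 ± 0.18) and FAF1 (-0.25 ± 0.30) at the lower end. All 17 genes of intraflagellar transport complex B were tested too, with a median of -0.0033 and 8 positive and 9 negative values. IFT70A (0.75 ± 0.62) and IFT70B (0.75 ± 0.54) had the highest values, and these near-identical copies may share reads. IFT56 (-0.23 ± 0.17) and IFT52 (-0.16 ± 0.17) had the lowest.

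Of the 7 genes of the AHNAK list, 6 were tested, with a median of -0.11 and a range of -0.21 to 0.21 with MXD3. AHNAK itself was at 412 and 373 CPM in EV and 435 and 304 CPM with MXD3. DYSF, which encodes the membrane repair protein dysferlin, had the highest value (0.21 ± 0.16), then S100A10 (0.08 ± 0.66), and PRX (-0.19 ± 0.30) and CACNB2 (-0.21 ± 0.48) the lowest. In the list of WIP, WASP and ARP2/3 genes all 23 were tested, with a median of -0.06, 8 positive and 15 negative values. WIPF1 was at 41.9 and 35.4 CPM in EV and 45.9 and 35.6 CPM with MXD3, and WIPF2 at 68.8 and 70.6 CPM in EV and 65.2 and 62.2 CPM with MXD3. The haematopoietic WASP gene WAS (-0.29 ± 0.24) and WASF2 (-0.27 ± 0.19) had the lowest values, and the ARP2/3 subunit genes ARPC1A (0.17 ± 0.13) and ARPC5L (0.13 ± 0.20) the highest.

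**Figure D4:**
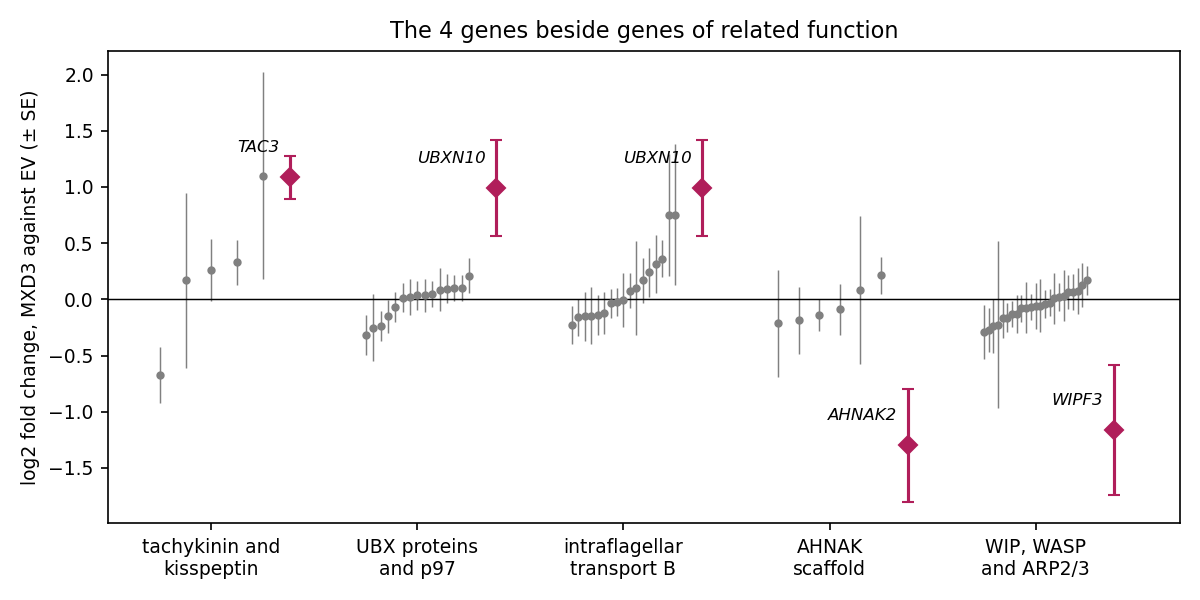
Log2 fold change from EV to MXD3 (vertical axis, edgeR, bars for the SE) of the 66 tested genes in 5 lists of related function (grey circles, ordered by value) beside the member each list belongs to (red diamonds). Most listed genes lie near 0, with TAC1 at 1.10 ± 0.92 as the widest exception. The 4 members lie at 1.09 (TAC3), 0.99 (UBXN10), -1.30 (AHNAK2) and -1.16 (WIPF3). The members were chosen for this change and the listed genes were not, so the distance of the members from the lists is not independent of the choice.

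Finally, the genes whose log2 CPM over the 6 libraries was most like that of each member were taken from the 10247 other genes with a mean of at least 5 CPM. TAC3 was closest to FAM210B (r = 0.993), EDEM3 (r = 0.987) and DCUN1D4 (r = 0.975). FAM210B was at 321 and 320 CPM in EV, 349 and 346 CPM with STIM1::MXD3 and 362 and 372 CPM with MXD3, the same order of groups over a much smaller range. UBXN10 was closest to UNG, which encodes uracil DNA glycosylase (r = 1.00), ZNF320 (r = 0.997) and TMEM177 (r = 0.995). UNG was at 20.6 and 29.3 CPM for EV, 34.1 and 42.8 CPM for MXD3 and 25.8 and 43.7 CPM for STIM1::MXD3. AHNAK2 was closest to CYC1, a subunit gene of respiratory complex III (r = 0.995), MME (r = 0.990) and DVL1 (r = 0.989), and WIPF3 to DUSP13B (r = 0.999), KDELR1 (r = 0.996) and POC1B (r = 0.996). Many more genes than those named had a high r over the 6 libraries. It was over 0.9 for 69 genes with TAC3, 623 with UBXN10, 377 with AHNAK2 and 993 with WIPF3. UBXN10, AHNAK2 and WIPF3 also differed more between the replicates than TAC3, and the part of this in their r was not tested.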

How the data were processed

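The authors deposited 1 table of raw counts per library, under NCBI Gene identifiers and not normalised. The submitters' processing notes name hg19, HISAT2 2.2.1 and featureCounts 2.0.1. Which annotation was counted, and whether with strand, is not given in the sources used here. Symbols were matched for 92.2% of the 25702 identifiers through RefSeq, and positions and exonic lengths were taken from GENCODE on GRCh37. Genes were kept with filterByExpr (15431 genes), scaled with TMM and tested two-sided with edgeR 4.0.16 (quasi-likelihood F, R 4.3.3) in 1 fit over 6 libraries with 1 coefficient per group. Benjamini-Hochberg adjustment ran over all genes tested, and the threshold was 0.05. Levels are TMM-scaled CPM, and correlations used log2 CPM with a prior count of 2. DESeq2 1.42.0 and other settings were alternatives. Scripts were tested on simulated data. The members, lists and tests were chosen with earlier results of these data known, and the members on MXD3 against EV. Named were the members, the 2 highest and 2 lowest genes per list with MXD3, the nearest neighbours, the 3 most similar genes and those beside the 2-fold limit. AHNAK, WIPF1, WIPF2 and receptor or peptide genes at low counts were named outside this rule, after their values were seen.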

Additional observations from a re-analysis of the deposited data

How the results depend on the processing

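Over 55 alternative values for the 4 genes, the direction held in all 55 for MXD3 against EV, the comparison that chose the genes. It held in 53 for STIM1::MXD3 against EV and in 50 between the constructs. The 2 and 5 reversals came from fits that left out 1 library. Without 1 library WIPF3 ran from -1.33 to 0.37 for the fusion against EV, and between the constructs UBXN10 ran from -0.96 to 0.24, AHNAK2 from -0.43 to 0.91 and WIPF3 from -0.17 to 1.36. In the fits with a reversal the groups compared did not hold the same replicate numbers. AHNAK2 had no value at a mean of at least 5 CPM, since it was below it.

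The number of genes called was 1 for STIM1::MXD3 against EV, 1 for MXD3 against EV and 0 between the constructs. With DESeq2 it was 3, 3 and 1. Without a filter on low counts it was 2 for the fusion against EV and 1 between the constructs. Leaving out a library gave 1 to 2 genes for MXD3 against EV, with 2 without MXD3 replicate 2. RLE size factors, counts divided by 2 and rounded up, a mean of at least 5 CPM and fits of 4 libraries left these counts as they were. For these shifts the cause was not tested.

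The replicate numbers are shared by the labels without a stated batch. Deviations from the group means correlated between same-numbered libraries with r of 0.270 to 0.450 over all genes tested and 0.621 to 0.792 over the 10250 with a mean of at least 5 CPM. With the replicate number as a block in edgeR 3, 45 and 1 genes were called in the 3 comparisons, and with the block in DESeq2 29, 243 and 11. In the edgeR fit with the block 0 of the 4 genes passed for STIM1::MXD3 against EV or between the constructs. For the fusion against EV 4 of 4 had an unadjusted p under 0.05, against 8.5% of all genes, and between the constructs 3 of 4, against 6.49%. Between the constructs these were TAC3 (-0.50 ± 0.17), UBXN10 (-0.32 ± 0.15) and WIPF3 (0.66 ± 0.19), while AHNAK2 was at 0.29 ± 0.23 (SE). Both comparisons reuse EV or MXD3 libraries that chose the genes, so their p for the members are not independent of the choice. UBXN10 passed for the fusion against EV with the block in DESeq2 (0.70 ± 0.17, adjusted p = 0.0307, where 0.365% of the 7952 genes with an adjusted p passed, and where its adjusted p over all settings ran from 0.0307 to 1.00). DESeq2 gave TAC3, AHNAK2 and WIPF3 no adjusted p in that fit. The replicate term of the edgeR fit with the block called 29.2% of all genes and 3 of the 4, namely UBXN10 (0.83 ± 0.12, adjusted p = 1.96e-04), AHNAK2 (-0.91 ± 0.19, adjusted p = 0.00214) and WIPF3 (-1.15 ± 0.15, adjusted p = 6.53e-05), and not TAC3 (0.05 ± 0.14, adjusted p = 0.829). Depth limits AHNAK2 most, with 91 to 364 counts per library.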
